A study of Homo sapiens with 24 samples.

Results

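The genes described here encode the proteins of the cytosolic ribosome, followed across 4 treatments of HCT-116 cells, a human colorectal cancer line. Array probes other than controls were taken where the gene name starts with RPL or RPS followed by a digit, or is RPLP0, RPLP1, RPLP2 or RPSA, and names of RPS6 kinases, RPS27L and pseudogenes were left out. This gave 161 of the 34127 probes on the array, for 86 genes. Of these, 77 are canonical ribosomal protein genes, 46 of the large and 31 of the small subunit, and the remainder are divergent paralogs such as RPL3L, RPL7L1 and RPL22L1. In all, 157 probes were well above background on every array of at least 1 treatment and were tested, 151 of them for canonical genes and 6 for paralogs. The 4 that were not tested are a probe for RPL10, the probe for RPL39L and the probes for 2 Y-linked copies of RPS4, whose values are not given.

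A ribosome holds a small subunit, which reads the messenger RNA, and a large subunit, which joins the amino acids, and each is built from ribosomal RNA and a fixed set of proteins. Ribosomal protein messengers are abundant in dividing cells, and most begin with a run of pyrimidines right at the transcription start, the 5′ terminal oligopyrimidine or TOP motif, through which the mTORC1 kinase and LARP1 control their translation. RPLP0, RPL13A and RPS18 serve as reference genes in expression work because their levels are taken to be steady. Butyrate, a fermentation product of dietary fibre, inhibits histone deacetylases and raises Wnt activity in many colorectal cancer cells.

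The cells were 1 stably transfected clone of HCT-116 carrying a Tet repressor and a vector for dominant negative Tcf4 (DN-Tcf4), which blocks Wnt transcription when doxycycline releases the repressor. Untreated cells (Ctl), cells with 5 mM sodium butyrate (NaB), with 4 μg/ml doxycycline (Doxy) and with both agents (DoxyNaB) were compared in 6 experiments, with 1 array per treatment and experiment and a butyrate treatment of 17.5 hr. All 4 groups carry both vectors, so no group shows untransfected cells, and 1 clone cannot show how clones differ. Of 7 colon epithelial markers fixed for this report, 6 (EPCAM, CDH1, KRT8, KRT18, KRT19 and CDX2) were well above background on all 24 arrays and VIL1 on 5. Of 8 markers of leukocytes, endothelial cells and fibroblasts, COL1A1 was well above background on 24 arrays and the others on 7 to 23, with levels from -8.20 to -0.03. On probe A_23_P127013 for TCF7L2, the gene of Tcf4, the change was +4.46 on the log2 scale in DoxyNaB/NaB (limma, adjusted p = 1.77e-06) and +0.30 in Doxy/Ctl (adjusted p = 0.861), so the arrays labelled Doxy did not show a detectable rise of this RNA. In DoxyNaB/NaB the other 2 TCF7L2 probes changed by +2.96 (A_23_P389588, adjusted p = 3.65e-05) and -1.25 (A_33_P3377304, nearest the gene's start, adjusted p = 0.00568). With butyrate and no doxycycline, in NaB/Ctl, A_23_P127013 also rose, by 1.90 (limma, adjusted p = 4.68e-04). There A_23_P389588 changed by +0.91 (adjusted p = 0.0294) and A_33_P3377304 by -0.08 (adjusted p = 0.777). The construct's sequence is not given in the sources used here.

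Levels are processed signals on the log2 scale after division by the array's 75th percentile, and a change is a difference of such levels. A probe was called when its change was over 2-fold with an adjusted p under 0.01 (limma with the experiment as a block, Benjamini-Hochberg over 18984 tested probes). The 75th percentile signal ranged from 380.2 to 1323 over the 24 arrays, and 52.7 to 88.1% of the spots other than controls were well above background. This share was 78.4 to 88.1% in experiments 2 to 4 and 52.7 to 62.6% in experiments 1, 5 and 6. Counts of arrays well above background thus mix 2 ranges of this share. The NaB array of experiment 3 and the DoxyNaB array of experiment 2 had net negative control signals of 161 and 249, against 48.4 to 115 on the other 22. In experiment 1 the 2 arrays with butyrate lay on another slide than the 2 without and had another scan date. Butyrate, slide and scan date thus cannot be told apart within it, whereas every other experiment shared 1 slide and 1 scan date. No other experiment was scanned on the dates of experiment 1. The study describes the experiments as biological replicates of 1 clone, and the p-values measure the spread between them.

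Start windows of the genes that the results turn on are shown because the run of pyrimidines at the start is what most of them share outside the selection by name. RefSeq start windows (GRCh38.p14) were found for 69 of the 86 genes. Each sequence below covers 20 bases before the start and the first 10 transcribed bases, 5′ to 3′, and capitals mark the unbroken run of C and T that holds the start base.
RPL22 (chr1:6199586-6199615, minus strand): ctgcgtagttcgctcaCCTCCCTTTCTaac
RPL22L1 (chr3:170870186-170870215, minus strand): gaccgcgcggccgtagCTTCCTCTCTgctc
RPL7L1 (chr6:42879596-42879625, plus strand): cgcgccggaagtgcggcgccgtagctagga
RPL21 (chr13:27251538-27251567, plus strand): cgccgcggccccgCCTCTTTCCTTTCggcc
RPL28 (chr19:55385912-55385941, plus strand): tcgcctcgcccctcgCCTTCCTCTTTCCgt
RPS23 (chr5:82278345-82278374, minus strand): ctccttcctgcggtgCTTCTCTCTTTCgct
RPLP0 (chr12:120201102-120201131, minus strand): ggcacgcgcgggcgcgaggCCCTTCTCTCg
RPS6 (chr9:19380227-19380256, minus strand): gcgctaagcggaagttggCCCTCTTTTCCg
RPS18 (chr6:33272055-33272084, plus strand): gatatcgcgtcacttccgCTCTCTCTTCCa

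A start base C followed by at least 4 bases that are each C or T stood in 46 of 77 start windows of 62 canonical genes (59.7%), against 4.07% of all 35116 start windows. Among the windows shown, RPL7L1 is the one without a run at its start. The run was there both in genes that fell under butyrate (RPL22, RPL21 and RPL22L1) and in genes whose change was close to 0 (RPLP0 and RPS18). In the whole 300-base windows, CCGGAAG on either strand was found in 33.8% of the canonical windows and 10.3% of all windows, and CTCTTT on either strand in 41.6 and 20.9%. A letter match is a description and does not show that a factor binds there.

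The first comparison asks how butyrate moved ribosomal protein RNA in cells without doxycycline (NaB/Ctl). Few ribosomal protein probes moved far. Of 157 tested, 4 were called, against 31.7% of all tested probes (20.7% higher and 11% lower). RPL3L and 1 alternative RPL28 probe rose, and RPL7L1 and RPL22L1 fell. Among the 151 canonical probes 1 was called, that RPL28 probe, and with 1 probe kept per gene, the one with the highest mean level, none of the 77 canonical genes was called, whereas 20 of them passed an adjusted p of 0.01 and 36 an unadjusted p of 0.05. The 95% interval of the change lay wholly within 2-fold either way for 146 of 151 canonical probes (96.7%), against 52.1% of all tested probes, and for all 77 genes with 1 probe each. It lay within 0.5 on the log2 scale for 110 of 151 (72.8%), against 20.02% of all. The canonical probes were bright, with medians of 5.76 to 6.91 over the 24 arrays, whereas the tested probes include dim ones. Of 15090 probes well above background on all 24 arrays, 2288 were called higher and 1721 lower. The part of brightness in these contrasts was not tested.

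**Figure D1:**
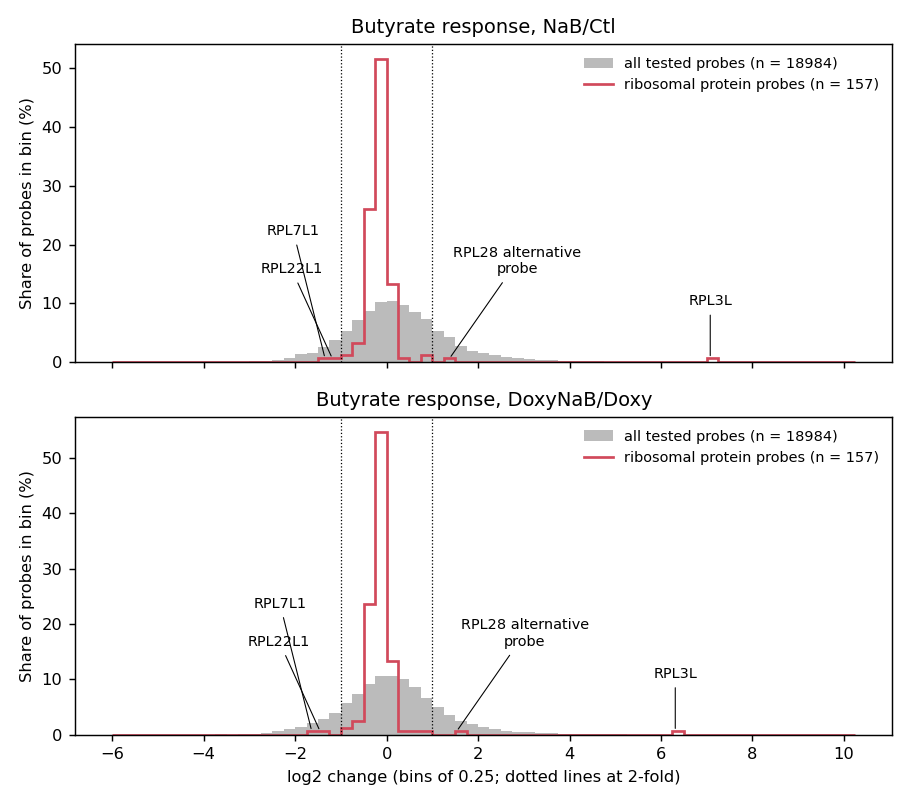
Share of probes (%) in bins of log2 change for NaB/Ctl (top) and DoxyNaB/Doxy (bottom), with the 157 ribosomal protein probes as a red line and all 18984 tested probes in grey; dotted lines mark 2-fold. The ribosomal protein probes form a narrow peak just below 0, with RPL3L alone at the far right at +7.08 and +6.31.

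Within these narrow limits most canonical probes lay slightly lower with butyrate. Their median change was -0.16 on the log2 scale, against +0.17 over all tested probes, and 127 of 151 were below 0 (84.1%, against 42.8% of all). At an adjusted p under 0.01 with no limit of size, 46 of 151 canonical probes passed (30.5%), of which 41, for 23 genes, fell and 5 rose. Over all tested probes 68.2% passed that rule, 28.2% lower and 40% higher. With the scaling used here, falls by this rule were thus no more frequent among the canonical probes than among all tested probes. The 41 falls ranged from -0.23 to -0.97 with a median of -0.38, and 34 of them were smaller than 0.5. Large subunit probes had a median change of -0.16 (92 probes, 24 lower and 2 higher) and small subunit probes of -0.13 (59 probes, 17 lower and 3 higher).

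The count of such small falls depended on the processing. Without the experiment as a block 11 member probes were lower in place of 43, and after normexp background correction 9 were. After quantile normalization 87 of 157 were lower, against 6198 of 18984 tested probes, so falls were then more frequent among the members. With signals floored at 5 and every array scaled to its median, the median change of the members was -1.07 and that of all tested probes -0.74, so the direction of a small change holds only relative to the chosen scale. There 138 of 157 members were lower, against 9512 of 18984 tested probes, again a larger share. Relative to all tested probes, the members' median was lower by 0.32 in the main scaling, 0.33 with median scaling, 0.11 after normexp and 0.08 after quantile normalization. The gap also depended on which probes were compared. It was lower by 0.84 without a filter and by 0.23 with only probes well above background on all 24 arrays.

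The size of the shift also differed between experiments. In NaB/Ctl the median change of the canonical probes was -0.09, -0.25, -0.41, -0.22, -0.07 and +0.02 in experiments 1 to 6, that is, below 0 in 5 of 6. The lowest value belongs to experiment 3, whose NaB array had the high negative controls. In DoxyNaB/Doxy the medians were -0.16, -0.53, +0.08, -0.21, -0.01 and -0.09, and the lowest belongs to experiment 2, whose DoxyNaB array had them. Without those 2 arrays the members' median was -0.11 in each comparison. Experiments 2 to 4, scanned together, gave -0.29 and -0.21, and experiments 5 and 6, also scanned together, gave -0.02 and -0.05. The part of the negative control signal or of the scan in this shift was not tested.

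Ribosomal protein levels also set experiment 1 apart, in all 4 treatments. Its Ctl array held the highest of the 6 Ctl values for 136 of 149 canonical probes measured on all 6 (91.3%), against 32.5% of all tested probes. The same held for 127 of 138 probes in NaB, 131 of 146 in Doxy and 125 of 141 in DoxyNaB. On the 4 arrays of experiment 1 the canonical probes lay a median of 0.38 to 0.54 above their own means over 24 arrays. At the other end, the DoxyNaB array of experiment 2 held the lowest value for 134 of 141 canonical probes (95.04%, against 41.3% of all). Differences within an experiment do not carry the first of these offsets, and leaving out experiment 1 kept the members' median at -0.17 in NaB/Ctl.

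**Figure D2:**
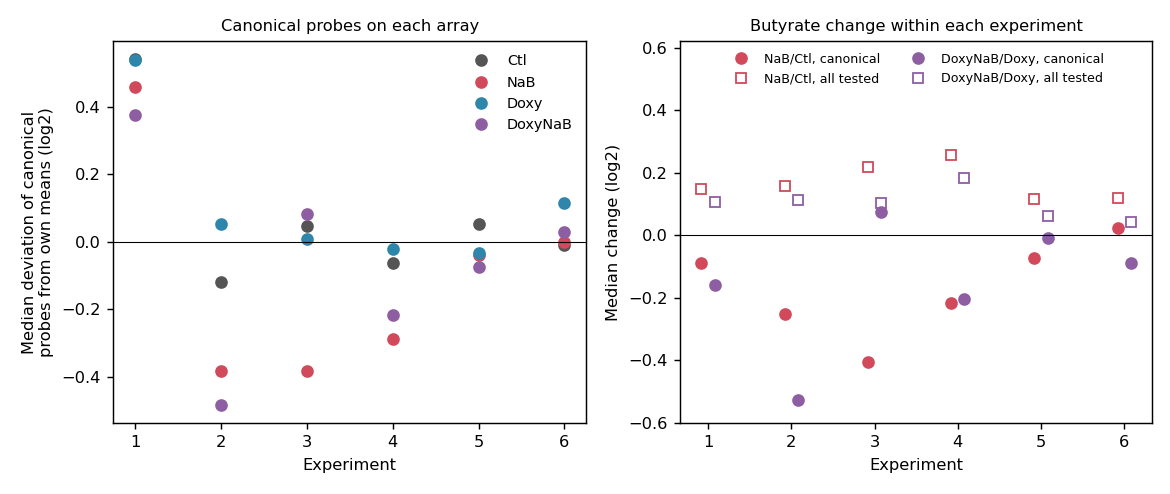
Left, the median deviation (log2) of the 151 canonical probes from their own means on each of the 24 arrays, by experiment and treatment; right, the median butyrate change (log2) of the canonical probes (filled circles) and of all tested probes (open squares) in each experiment. All 4 arrays of experiment 1 lie above 0.37 on the left, and on the right the canonical medians lie below those of all probes in all 6 experiments of both comparisons.

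Genes commonly used as references did not pass the test. RPLP0, a protein of the stalk that recruits translation factors, had levels of 7.56 (lowest), 7.72 (median) and 8.35 (highest) in Ctl and 7.43, 7.77 and 8.33 in NaB. The groups overlapped almost fully, and the change was -0.01 with a 95% interval from -0.21 to 0.19. Its other probe, A_23_P204472, changed by -0.14 (-0.31 to 0.02). RPS18, a protein of the small subunit head, changed by -0.01 (-0.18 to 0.15) and RPL13A by -0.13 (-0.33 to 0.07), with -0.14 and -0.25 on its other 2 probes. RPL11 and RPL5, which with 5S RNA can bind MDM2 and stabilise p53, changed by -0.09 (-0.30 to 0.12) and -0.17 (-0.32 to -0.01), with adjusted p = 0.420 and 0.0482. Over the 3 RPL5 probes the changes ranged from -0.17 to +0.16. RPS27A, made as a fusion with ubiquitin, changed by less than 0.01 (-0.16 to 0.17).

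RPS6, the small subunit protein that S6 kinases phosphorylate, and RPSA, also known as the laminin receptor, were slightly lower. RPS6 had levels of 6.62, 6.71 and 7.14 in Ctl and 6.33, 6.48 and 6.93 in NaB. These groups overlapped, but NaB was lower than Ctl in 6 of 6 experiments, and the change of -0.23 (SE 0.07) passed with an adjusted p of 0.00832. RPSA fell by 0.33 on the log2 scale (SE 0.10, adjusted p = 0.00569), again in 6 of 6 experiments. Over the 4 RPSA probes the changes ranged from -0.35 to +0.04, and 3 passed an adjusted p of 0.01, all lower.

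RPL22 and RPL21 were canonical genes that fell on more than 1 probe. RPL22 binds RNA and is dispensable for translation itself. On its probe A_24_P849801 the levels were 2.06, 2.43 and 2.49 in Ctl and 1.35, 1.55 and 1.79 in NaB. The groups did not overlap, and the change was -0.80 (SE 0.08, adjusted p = 8.31e-08). Its other probe, A_32_P210252, fell by 0.67 on the log2 scale (SE 0.11, adjusted p = 3.02e-05), with 1 NaB array left out as an outlier spot.

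RPL21 was read by 9 probes, more than any other member, and all 9 changes were below 0. They ranged from -0.31 to -0.70, and 7 of the 9 passed an adjusted p of 0.01 and thus fell. The largest was that of A_32_P234738, with levels of 3.49, 3.86 and 4.36 in Ctl and 2.84, 3.07 and 3.84 in NaB. It was lower in all 5 experiments where both arrays were measured, and its adjusted p was 6.81e-07. For 1 of the 9, A_32_P194821, the design gives a position on chromosome 10 and not on chromosome 13, where the other 8 lie, so a copy of the gene may share its reads.

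RPL22, RPL6 and RPS7 were the genes with several probes of which every probe fell at an adjusted p under 0.01. RPL6 changed by -0.46 and -0.45 on its probes, and RPS7, which like RPL11 binds MDM2, by -0.47 and -0.35. Genes read by a single probe that fell included RPL14, RPL27, RPL30, RPL35A, RPL4 and RPS6. Their changes lay between -0.23 and -0.41. RPL23A on probe A_24_P91140 fell by 0.72 on the log2 scale (SE 0.15, adjusted p = 3.24e-04), but the other 3 RPL23A probes did not pass the test. RPS14, a small subunit protein whose loss is known from a form of myelodysplasia, had levels of -1.46, -1.37 and -1.22 in Ctl and -2.11, -1.88 and -1.65 in NaB on probe A_24_P37939. The groups did not overlap, and the fall was 0.53 on the log2 scale (SE 0.05, adjusted p = 2.97e-08), and that in DoxyNaB/Doxy was 0.37 (adjusted p = 2.83e-06). This probe was designed on an Ensembl transcript and the other RPS14 probes on RefSeq transcripts. Over all 3 RPS14 probes the changes in NaB/Ctl ranged from -0.53 to -0.23, and 2 passed an adjusted p of 0.01.

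Rises among canonical genes were few and, apart from alternative probes, small. RPS23, at the decoding centre of the small subunit, had levels of 2.34, 2.42 and 2.58 in Ctl and 2.54, 2.70 and 2.91 in NaB on probe A_33_P3257714. Most NaB arrays lay above the Ctl arrays, and the change was +0.27 (SE 0.06, adjusted p = 3.09e-04). The other RPS23 probe, A_32_P84605, changed by -0.07 (adjusted p = 0.771) and, in DoxyNaB/Doxy, by -0.27 (adjusted p = 0.263). The former was higher in 6 of 6 experiments, but with median scaling its change turned to -0.63, with an adjusted p of 0.0202 that did not pass.

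Probes of the same gene mostly gave similar changes. Over the 40 genes with several tested probes the median gap between the highest and lowest change was 0.12, and it was under 0.5 for 36 of them. RPL28 and RPS29 were the 2 genes with a gap over 1, and the 2 with probes past the adjusted p of 0.01 in opposite directions. In both, the probes that rose were designed on an alternative RefSeq transcript, but so was the RPL28 probe that fell.

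RPL28, a large subunit protein that has no counterpart in yeast, was read by 4 probes on chromosome 19. Probe A_33_P3299309 (chr19:60590148-60590207, NCBI36, plus strand) had levels of -2.76, -2.12 and -1.63 in Ctl and -0.98, -0.84 and -0.43 in NaB. The groups did not overlap, and the rise was 1.36 on the log2 scale or 2.57-fold (SE 0.18, adjusted p = 1.60e-06). Its first 30 bases are shown because it is the single canonical probe that was called.
RPL28, A_33_P3299309: ttttcagatgaaattctcaaagcaagtcag
Probe A_33_P3299319, which starts at 60590840, rose by 0.79 (adjusted p = 5.86e-06). Probe A_33_P3299314, at 60595201, fell by 0.32 on the log2 scale (adjusted p = 9.71e-04), and A_23_P208358 on the main transcript, at 60591144, changed by +0.21 (adjusted p = 0.0541). The change of A_33_P3299309 no longer reached 2-fold after normexp (+0.95), quantile normalization (+0.99) or median scaling (+0.46), and in experiments 5 and 6 alone its adjusted p was 0.0408.

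RPS29, a zinc-binding protein of the small subunit, also had probes that passed in opposite directions. On probe A_33_P3282840 (chr14:49113824-49113883, NCBI36, minus strand) the levels were -0.17, 0.31 and 0.63 in Ctl and 0.75, 1.01 and 1.80 in NaB. The groups did not overlap, and the rise was 0.80 (SE 0.11, adjusted p = 3.83e-06). The first 30 bases of this probe are as follows.
RPS29, A_33_P3282840: ctgcacagtgcagaaagtgaatagacagtg
The other 3 RPS29 probes, on the main transcript, fell by 0.35 to 0.38. RPS26 differed in size rather than direction, with -0.97 on A_23_P139471 (adjusted p = 3.11e-08) against -0.37 and -0.16 on its other 2 probes. Levels on A_23_P139471 were 0.11, 0.56 and 1.37 in Ctl and -0.62, -0.51 and 0.28 in NaB, and the overlap came from experiment 1, whose NaB array was the highest of its group.

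**Figure D3:**
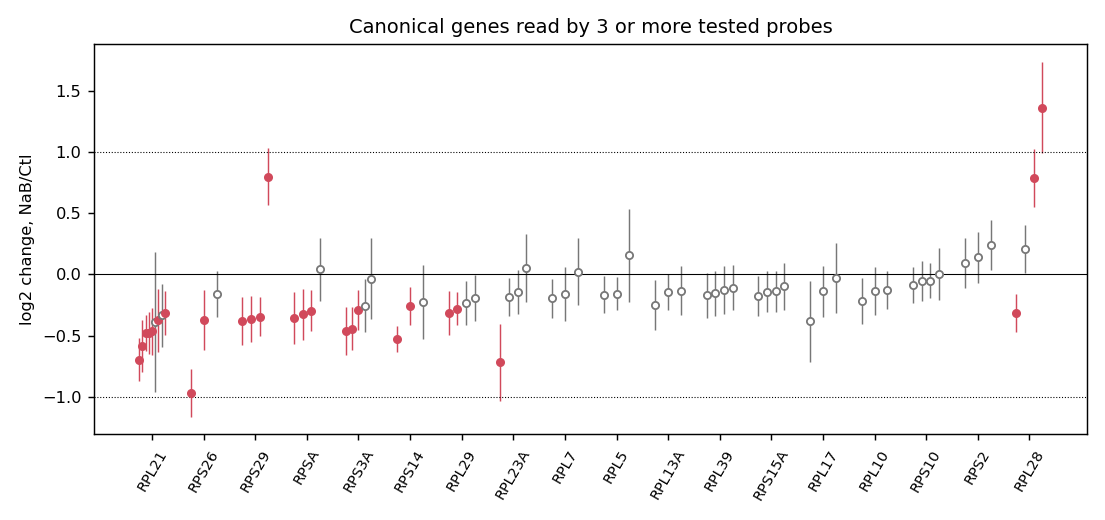
log2 change in NaB/Ctl, with its 95% interval, of each tested probe of the canonical genes read by 3 or more probes; filled red points passed an adjusted p of 0.01 and dotted lines mark 2-fold. RPL21 probes all lie below 0, and RPS29 and RPL28 are the genes whose probes passed on both sides of 0.

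Of the 6 divergent paralogs tested, RPL3L, RPL7L1 and RPL22L1 were called and the other 3 did not pass the test. RPL3L, the striated muscle counterpart of RPL3, had levels of -6.04, -5.0 and -4.64 in Ctl and 1.53, 1.72 and 2.65 in NaB. No Ctl array came near a NaB array. The rise was 7.08 on the log2 scale (SE 0.25, adjusted p = 5.36e-14), in 6 of 6 experiments. In Ctl 4 of 6 arrays had it well above background, and the probe was tested because it was well above background on all butyrate arrays. The size of the rise thus rests on dim signals in Ctl, and after normexp it was 4.45 (adjusted p = 1.87e-08). RPL3 itself changed by -0.17 (SE 0.07, adjusted p = 0.0380). The probes for both are shown because the pair is read by different sequences, and neither lies wholly within 1 exon by the span of its coordinates. Whether either probe also reads the other gene was not tested.
RPL3L, A_23_P118095 (chr16:1935599-1935874, NCBI36, minus strand): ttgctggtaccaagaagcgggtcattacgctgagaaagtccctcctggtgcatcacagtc
RPL3, A_23_P68942 (chr22:38040132-38040668, NCBI36, minus strand): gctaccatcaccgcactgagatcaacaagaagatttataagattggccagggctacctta

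RPL7L1, related to RPL7 and known for a part in making the large subunit, had levels of 1.03, 1.15 and 1.47 in Ctl and -0.37, -0.08 and 0.00 in NaB. The groups did not overlap, and it fell by 1.34 on the log2 scale (SE 0.10, adjusted p = 1.18e-09). RPL7 changed by -0.20 (SE 0.08, adjusted p = 0.0279). RPL22L1, the paralog of RPL22, had levels of 5.94, 6.09 and 6.61 in Ctl and 4.51, 4.94 and 5.68 in NaB, again without overlap. It fell by 1.18 on the log2 scale (SE 0.11, adjusted p = 1.22e-08), so that RPL22 and RPL22L1 both fell. The probes that carry these falls are the following.
RPL7L1, A_24_P332971 (chr6:42961996-42962055, NCBI36, plus strand): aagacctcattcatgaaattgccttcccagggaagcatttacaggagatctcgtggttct
RPL22L1, A_23_P143958 (chr3:172066898-172066957, NCBI36, minus strand): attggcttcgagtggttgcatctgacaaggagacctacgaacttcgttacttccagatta

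The other paralogs stayed close to 0. RPL10L, an intronless copy of RPL10 known from testis, changed by -0.14 with an interval from -0.30 to 0.03, and RPL10 by -0.22 (-0.40 to -0.03). RPL10L is so close to RPL10 that its probe may read both. RPL26L1 changed by +0.13 (-0.11 to 0.37) beside -0.14 (-0.37 to 0.08) for RPL26. RPL36AL changed by -0.06 (-0.25 to 0.12) beside -0.09 (-0.24 to 0.06) for RPL36A, whose probe the design places on chromosome 11 and not on X. RPL39 changed by -0.17 (-0.36 to 0.01), while the RPL39L probe was well above background on 9 of 24 arrays and was not tested.

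**Figure D4:**
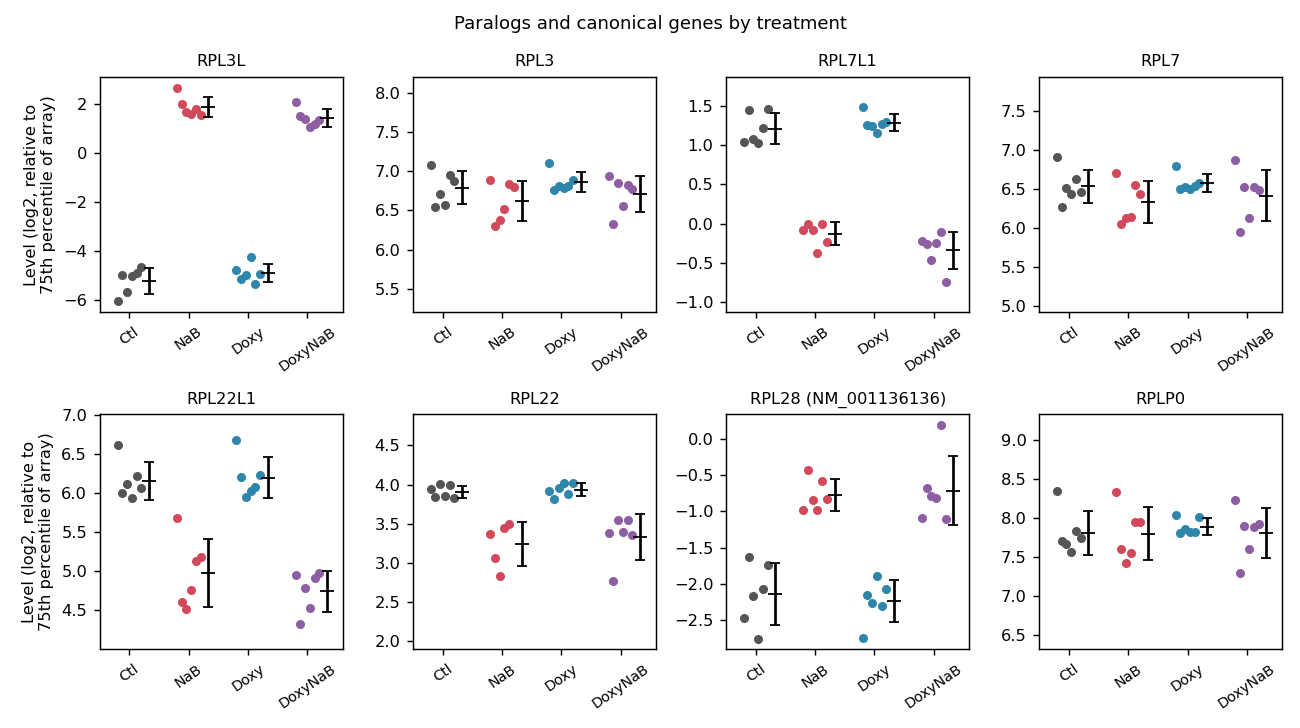
Level (log2, relative to the 75th percentile of the array) on each array for RPL3L, RPL7L1 and RPL22L1 beside RPL3, RPL7 and RPL22, with the called RPL28 probe and RPLP0; points run from experiment 1 to 6, bars are the mean ± SD of 6 arrays (5 for RPL22 in NaB), and each panel has its own vertical axis. The 3 paralogs separate fully by butyrate, whereas RPL3, RPL7 and RPLP0 overlap.

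The second comparison asks the same with doxycycline in both arms (DoxyNaB/Doxy). The same 4 probes were called, against 30.6% of all tested probes (18.3% higher and 12.3% lower). RPL3L had levels of -5.33, -4.95 and -4.25 in Doxy, where it was well above background on 5 of 6 arrays, and 1.04, 1.36 and 2.08 in DoxyNaB. It rose by 6.31 on the log2 scale (SE 0.25, adjusted p = 1.95e-13), and by as little as 3.99 over the alternatives. The RPL28 probe A_33_P3299309 rose by 1.52 (SE 0.18, adjusted p = 4.09e-07). RPL7L1 fell by 1.63 on the log2 scale (SE 0.10, adjusted p = 7.68e-11), with levels of 1.16, 1.27 and 1.49 in Doxy and -0.75, -0.25 and -0.11 in DoxyNaB. RPL22L1 fell by 1.45 (SE 0.11, adjusted p = 7.46e-10), with 5.94, 6.14 and 6.68 in Doxy and 4.32, 4.85 and 4.97 in DoxyNaB. None of these 4 overlapped between the groups.

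The canonical probes again lay slightly lower, with a median of -0.16 against +0.10 over all tested probes, and 147 of 151 had an interval within 2-fold (97.4%, against 53.2%). At an adjusted p under 0.01, 33 of 151 fell and 4 rose (24.5% in all), against 29.7 and 37.3% of all tested probes (67% in all). With this scaling, falls were again no more frequent than among all tested probes. After quantile normalization they were more frequent, with 73 of 157 members lower against 6261 of 18984 tested probes. Without the block 9 members were lower in place of 35, and with the methods' t-test 11. On the RPL22 probes the changes were -0.87 (SE 0.08, adjusted p = 2.66e-08) and -0.60 (SE 0.11, adjusted p = 7.84e-05). RPL21 probes ranged from -0.21 to -0.54, and 6 of 9 passed. The alternative RPS29 probe rose by 0.82 (SE 0.11, adjusted p = 2.72e-06) while the other 3 fell, and the RPS26 probe A_23_P139471 fell by 0.99 on the log2 scale (SE 0.09, adjusted p = 2.27e-08). RPLP0 changed by -0.08 (-0.29 to 0.12), RPL13A by -0.18 (-0.38 to 0.02) and RPS18 by less than 0.01 (-0.16 to 0.17).

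The 2 butyrate responses share no arrays but do share slides, and over the 151 canonical probes they correlated with a Pearson r of 0.920 across probes, which are not independent replicates, against 0.967 over all tested probes. The difference between them, the interaction, reached an adjusted p under 0.01 in 0 of 157 ribosomal protein probes by limma, against 1.24% of all tested probes, and 2 had an unadjusted p under 0.05. The count was also 0 with the methods' paired test. The median size of the difference was 0.05 for canonical probes, and the 95% interval lay within 2-fold for 151 of 151. For RPL3L the difference was 0.76 (0.01 to 1.52, adjusted p = 0.405).

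Doxycycline moved no ribosomal protein probe past the threshold, with or without butyrate. In Doxy/Ctl 0 of 157 were called and 0 passed an adjusted p of 0.01 by limma (8 had an unadjusted p under 0.05), against 0.0948% of all tested probes called and 0.5% past that p. The methods' paired test also called 0. The changes ranged from -0.24 to +0.46, the median was +0.04, and the interval lay within 2-fold for 157 of 157. In DoxyNaB/NaB 0 were called by limma or by the paired test, against 0.379% of all called and 2.49% past an adjusted p of 0.01, and 9 had an unadjusted p under 0.05. The changes ranged from -0.45 to +0.31 with a median of +0.06, and again all 157 intervals lay within 2-fold.

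Other genes of translation were taken from lists, with 1 probe per gene. Of the ribosomal components with another name, RACK1, a scaffold on the small subunit, fell by 0.36 in NaB/Ctl (adjusted p = 3.75e-04) and by 0.45 in DoxyNaB/Doxy (adjusted p = 4.22e-05). FAU, whose product is processed to a small subunit protein, changed by -0.24 and -0.17 and did not pass.

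Elongation factors and other genes whose messengers are known to carry a TOP motif held 15 members, all tested. In NaB/Ctl 2 were called lower and none higher, against 11 and 20.7% of all tested probes, and at an adjusted p under 0.01 without a limit of size 8 fell and 2 rose, against 28.2 and 40% of all, with a median of -0.35. In DoxyNaB/Doxy 1 of 15 was called, NAP1L1 at -1.18, against 30.6% of all tested probes (12.3% lower). NAP1L1, a histone chaperone, fell by 1.14 on the log2 scale (SE 0.08, adjusted p = 2.98e-10), and EIF4B, a helper of the EIF4A helicase, by 1.09 (SE 0.10, adjusted p = 2.36e-08). EEF1A1, which carries aminoacyl-tRNA to the ribosome, changed by -0.10 (adjusted p = 0.304), and EEF1D and TPT1 rose by 0.54 and 0.45. Initiation factors had 5 of 44 tested genes called (11.4%, against 31.7% of all tested probes), 1 higher and 4 lower, with a median of -0.21. EIF4E3 rose by 2.17 (SE 0.30) and EIF4G2 and EIF2S2 fell by 1.22 and 1.18.

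Genes of the mitochondrial ribosome, which translates the messengers of the mitochondrial genome, lay lower than those of the cytosolic one. Of 77 tested, 18 were called in NaB/Ctl (23.4%), all lower, against 11% of all tested probes called lower, with a median of -0.59 against +0.17 over all tested probes and -0.14 over the 77 canonical cytosolic genes with 1 probe each. In DoxyNaB/Doxy 14 were called (18.2%), all lower, against 12.3% of all, with a median of -0.52. MRPS18B fell by 1.74 (SE 0.07, adjusted p = 2.71e-13) and MRPL11 by 1.62 (SE 0.10, adjusted p = 4.47e-11), each in 6 of 6 experiments. The difference between the 2 lists was not tested.

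The list of S6 kinases and mTORC1 held all genes named RPS6K, mTORC1 components with RHEB, EIF4EBP genes and LARP1. Of its genes, 4 of 16 tested were called in NaB/Ctl (25%, against 31.7% of all tested probes). RPS6KB1, RPS6KB2, MTOR, RPTOR and MLST8 were not among those called. RPS6KA2, a kinase of the RSK family, rose by 2.76 (SE 0.08, adjusted p = 5.98e-15), or 6.76-fold, and RPS6KL1 by 1.34 (SD over experiments 1.11, adjusted p = 0.00116), but RPS6KL1 was not called in DoxyNaB/Doxy (+0.85, adjusted p = 0.0242). LARP1, which binds the TOP motif, fell by 1.82 on the log2 scale (SE 0.06, adjusted p = 3.56e-14) in 6 of 6 experiments, and RPS6KA4 also fell by 1.82 (SE 0.13, adjusted p = 5.77e-10). MTOR, RPS6KB2 and EIF4EBP2 rose by 0.53, 0.53 and 0.50 and EIF4EBP1 and MLST8 fell by 0.91 and 0.82, all short of 2-fold. RPS6KB1, the main kinase of RPS6, changed by -0.03 (adjusted p = 0.719). In DoxyNaB/Doxy 4 of 16 were called (25%, against 30.6% of all tested probes). There LARP1, RPS6KA4 and EIF4EBP1 fell by 1.81, 1.29 and 1.24 on the log2 scale, and RPS6KA2 rose by 2.52. No gene of any of these lists was called in Doxy/Ctl, DoxyNaB/NaB or the interaction. Over all tested probes the shares called were also small, at 0.0948, 0.379 and 1.24%.

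**Figure D5:**
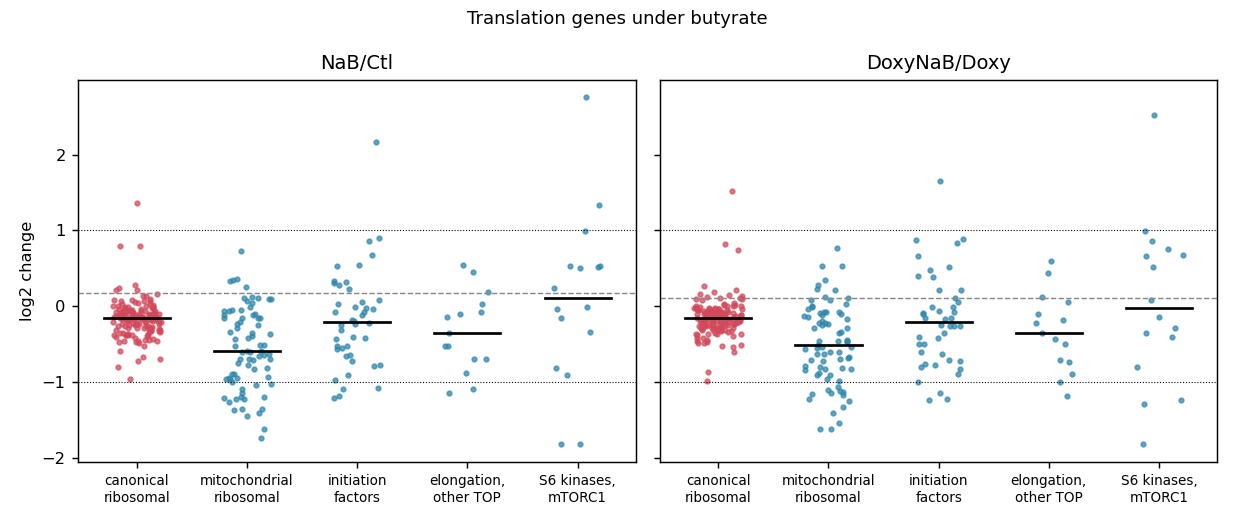
log2 change of each tested probe or gene in NaB/Ctl (left) and DoxyNaB/Doxy (right) for canonical ribosomal proteins (151 probes), mitochondrial ribosomal proteins (77 genes), initiation factors (44), elongation factors and other TOP messengers (15), and the list of S6 kinases and mTORC1 (16), which also holds EIF4EBP genes and LARP1. Black bars are medians, the dashed line is the median of all tested probes, dotted lines mark 2-fold, and the canonical ribosomal proteins form the tightest cloud, with medians of -0.16 in both.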

How the data were processed

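RNA of HCT-116 cells was measured on 24 Agilent 1-colour human arrays, and the submitters deposited Feature Extraction output (version 9.5.3.1, per the file headers), whose intensity values are background-subtracted processed signals. The study analysed them in GeneSpring with a paired test. Here each array's processed intensity, without control and outlier spots, was averaged over spots of a probe, divided by the array's 75th percentile over spots and taken to log2. Probes were kept when well above background (a Feature Extraction flag) on all measured arrays of at least 1 treatment; an outlier spot counted as passing and was left out as missing in the fit. limma 3.58.1 (R 4.3.3) was fitted over all 24 arrays with treatment and experiment as terms; the experiment is a block because the study paired its arrays. Standard errors, intervals and adjusted p-values come from this fit. All samples had groups from the labels, and arrays have no counts, so their number limits the precision. On simulated data the fit was tested before use. The members, gene lists and tests were chosen with earlier results of these data known. Named genes are the paralogs with their canonical genes, up to 5 rises and 5 falls in each butyrate comparison that passed an adjusted p of 0.01 the same way in 6 of 6 experiments, genes of textbook roles, and the largest called changes of each list; further genes were named after their values were seen, and the values of a few genes are not reported here. A gene with several probes is given by the one with the highest mean level unless a probe is named. Older symbols were updated through RefSeq. Alternatives covered background correction, scaling, filters, block, test, threshold and left-out arrays. Gene coordinates of probes are those of the files (NCBI36), and no genome was used.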

Additional observations from a re-analysis of the deposited data

Results flagged for a closer look

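In groups of 6 arrays, an array was set apart when its gap to the nearest value as a share of the group's range exceeded Dixon's 95% critical value, and chance gives about 1 such group in 20. Of 121 groups of named probes, 30 had one, mostly the array of experiment 1 as the highest. In Ctl the experiment 1 levels so set apart were 6.55 for RPL26, 6.71 for RPL36A, 5.26 for RPL36AL, 6.98 for RPL39, 8.35 for RPLP0, 5.06 for RPS27A and 7.14 for RPS6. In NaB the experiment 1 levels so set apart were 7.54 for RPL13A, 6.58 for RPL5, 0.28 for RPS26 (A_23_P139471), 5.11 for RPS27A, 1.80 for RPS29 (A_33_P3282840) and 7.48 for RPSA. In Doxy the experiment 1 levels so set apart were 5.67 for RPL10L, 7.52 for RPL13A, 5.76 for RPL21 (A_32_P194821), 6.48 for RPL26, 7.10 for RPL3, 6.78 for RPL36A, 7.20 for RPL39, 6.79 for RPL7, 7.84 for RPS18, 5.07 for RPS27A, 7.08 for RPS6 and 7.64 for RPSA. On the low side, RPL22 probe A_24_P849801 stood at 2.03 in the Doxy array of experiment 1 and A_32_P210252 at 2.76 in the DoxyNaB array of experiment 2. In the Doxy array of experiment 5, RPS14 probe A_24_P37939 stood at -1.59 and RPS29 probe A_33_P3282840 at -0.22. RPL28 probe A_33_P3299309 was high at 0.19 in the DoxyNaB array of experiment 5.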

How the results depend on the processing

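The 0 calls in Doxy/Ctl, DoxyNaB/NaB and the interaction stayed 0 in every alternative run. The 4 calls in each butyrate comparison became 105 in NaB/Ctl and 22 in DoxyNaB/Doxy when signals were floored at 5 and arrays scaled to their median, and 49 and 40 without a fold threshold, and leaving out 1 experiment gave 4 to 5 and 4 to 6. With median scaling the median changes were -1.07 in NaB/Ctl, -0.81 in DoxyNaB/Doxy and -0.090 in Doxy/Ctl. Leaving out 1 experiment gave medians of -0.20 to -0.11 in NaB/Ctl, -0.20 to -0.08 in DoxyNaB/Doxy, 0.0036 to 0.06 in Doxy/Ctl, -0.02 to 0.09 in DoxyNaB/NaB and -0.08 to 0.08 in the interaction.

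The 49 probes past an adjusted p of 0.01 at any size in NaB/Ctl became 13 with normexp, 94 with quantile normalization, 139 with median scaling, 18 in experiments 2 to 4, 13 in experiments 5 and 6 and 23 with 1 probe per gene, and 33 to 47 when 1 experiment was left out. The 40 in DoxyNaB/Doxy became 81 with quantile normalization, 76 with median scaling, 19 with the arrays compared alone, 15 with the methods' t-test and Benjamini-Hochberg adjustment, 12 in experiments 2 to 4, 8 in experiments 5 and 6, 62 at an adjusted p of 0.05, 18 with 1 probe per gene, and 27 to 50 when 1 experiment was left out. Without the experiment block the counts were 16 and 13. Same-numbered arrays deviated together in 35 of 36 pairs (r over 0.1), and the other pair, NaB and DoxyNaB of experiment 3, had r = -0.22, so the block rests on the study's paired design. The causes of these differences were not tested.

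Among single probes, median scaling turned RPS23 to -0.63 in NaB/Ctl and -0.47 in DoxyNaB/Doxy, and in NaB/Ctl RPS27A to -0.90 and RPS29 probe A_33_P3282840 to -0.11. Quantile normalization turned RPS18 to -0.16 in DoxyNaB/Doxy. The 75th percentile over probes in place of spots was an alternative chosen after seeing the data, and gave a median of -0.25 in NaB/Ctl. Signal over background limits RPL3L in untreated cells and leaves RPL39L untested.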

Other observations

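The probes left out of the tests for dim signal include 1 for RPL10, A_24_P6305, which was well above background on 3 of 6 Ctl, 5 of 6 NaB, 4 of 6 Doxy and 5 of 6 DoxyNaB arrays. Its mean levels were -5.12 in Ctl, -3.44 in NaB, -4.70 in Doxy and -3.18 in DoxyNaB, with no test. RPL39L was well above background on 3 Ctl, 3 NaB, 1 Doxy and 2 DoxyNaB arrays.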
